A study of Mus musculus with 2 samples.

Results

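AMPA receptors are the channels that carry most fast excitatory transmission in the brain, and 10 of their genes are described here in mouse hippocampus. The genes were taken from every gene and transcript table by their symbols: the pore-forming subunits Gria1, Gria2, Gria3 and Gria4, and the auxiliary proteins Cacng2, Cacng3, Cacng8, Cnih2, Shisa6 and Shisa9. They are 10 of 55450 annotated genes in these tables, and their 44 annotated transcripts are among 141767. Total RNA came from female mice of the strain B6CASTF1/J, a cross of C57BL/6J with CAST/EiJ, aged 14 days, and no treatment is named in the labels. The study held 1 group of 2 libraries, called biological replicates 1 and 2. For each library the labels name 3 mice, not the same ones, and 300 ng of RNA. The labels call the tissue a layer of the hippocampus without saying which, and both libraries carry the same donor identifier.

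Every AMPA receptor is built from subunits that line a cation pore opened by glutamate. Receptors that contain an edited Gria2 subunit pass little calcium, and those without it pass more. Auxiliary proteins sit around the pore in the membrane, bring receptors to the synapse and slow or speed their closing. Hippocampal pyramidal neurons carry mostly receptors of Gria1 and Gria2 or of Gria2 and Gria3, with Cacng8 and Cnih2 as partners. Each pore gene also holds a pair of mutually exclusive exons, flip and flop, and a transcript normally keeps either flip or flop. For some of the subunits, flop receptors desensitize faster.

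Replicate 1 held 33465393 expected counts and replicate 2 held 32879872, and each of the 10 genes had between 910 and 30747 of them in a library. Expected counts are reads assigned to a gene by the alignment-based quantification, and need not be whole. Levels are in TPM, which divides reads by transcript length and scales every library to the same sum. Markers of hippocampal neurons were detected, meaning 1 TPM or more in both libraries, for 3 of 3 CA1, 3 of 3 CA3 and 3 of 3 dentate granule genes. Gabra6 and Cbln3, which mark cerebellar granule cells, were at most 1.30 TPM in either library, and of 3 thalamic genes Gbx2 was at most 0.06 TPM, while Prkcd had 22.1 and 18.4 TPM and Slc17a6 9.24 and 11.7 TPM in replicates 1 and 2. The libraries differed in choroid plexus genes, of which 8 of 8 were higher in replicate 1, with a summed level of 1437 TPM in replicate 1 and 9.86 TPM in replicate 2. Most of that sum in replicate 1 was Ttr, at 1375 TPM, and without it the sums were 61.9 and 4.24 TPM in replicates 1 and 2. The 3 dentate granule markers were lower in replicate 1, with a sum of 66.3 TPM in replicate 1 and 85.3 TPM in replicate 2. Higher and lower here mean at least 1.2-fold apart. Of all genes compared, 12.3% were higher in replicate 1 by that measure and 8.78% were lower. In bulk tissue, fewer cells of a type and less RNA per cell cannot be told apart.

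All 10 genes were detected in both libraries, against 26.7% of all annotated genes and 58.7% of nuclear protein-coding genes. Levels spanned from 379 ± 10.1 TPM for Cnih2 to 17.0 ± 1.15 TPM for Shisa9 (mean ± SD, n = 2). The pore genes split into an abundant pair, Gria1 and Gria2, and a scarcer pair, Gria3 and Gria4. The auxiliary genes split likewise, with Cnih2, Cacng8 and Shisa6 at 80.8 TPM or more in each library and Cacng3, Cacng2 and Shisa9 at 23.7 TPM or less. The transcripts that carry these levels are described after the genes.

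**Figure D1:**
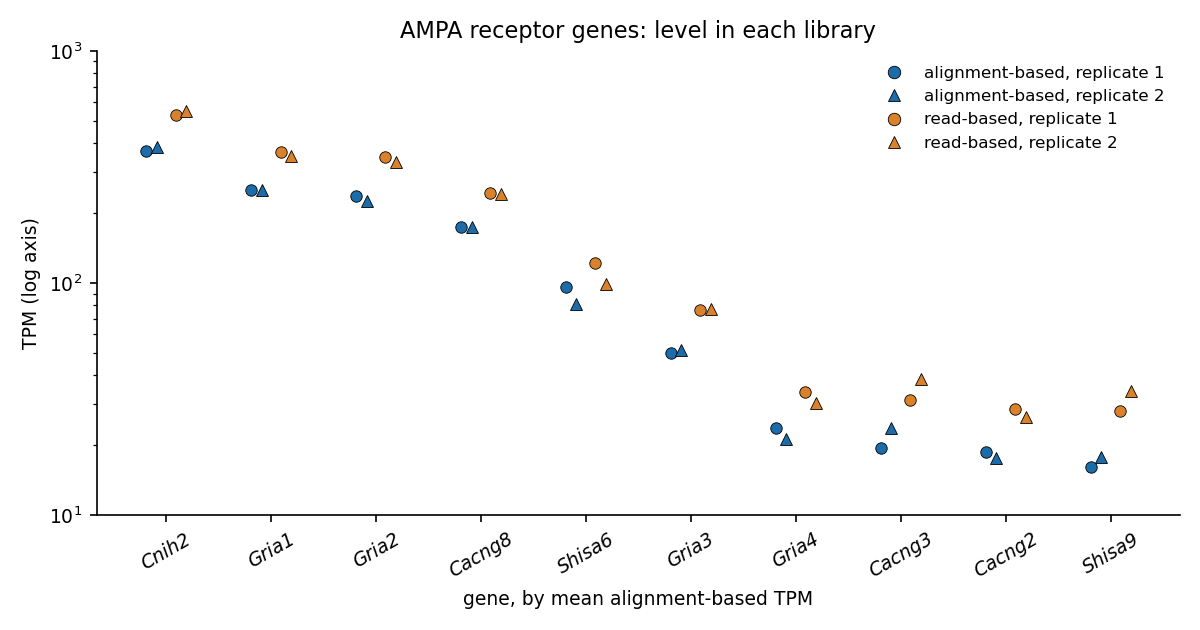
Level of each AMPA receptor gene in TPM on a log axis, with a point for each library and quantification: alignment-based (blue) left of read-based (orange), replicate 1 as circles and replicate 2 as triangles. Cnih2, Gria1, Gria2, Cacng8, Shisa6 and Gria3 descend in that order under both quantifications, and the last 4 genes lie close together.

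Gria1 (ENSMUSG00000020524.16), which encodes the GluA1 subunit, lies at chr11:57011387-57330244 on the forward strand of mm10. It had 252 TPM in replicate 1 and 252 TPM in replicate 2, and ranked 200 among 12885 detected nuclear protein-coding genes. Gria2 (ENSMUSG00000033981.14), which encodes the subunit that limits calcium entry, lies at chr3:80681450-80802835 on the reverse strand. It had 237 and 225 TPM in replicates 1 and 2, rank 231. The values of Gria1 and Gria2 were close but did not overlap: both Gria1 libraries were higher than both Gria2 libraries. Gria3 (ENSMUSG00000001986.16), whose subunit pairs with that of Gria2, lies at chrX:41400854-41678601 on the forward strand. It had 50.1 and 51.4 TPM, rank 1979, and sat apart from every other gene in the set. Gria4 (ENSMUSG00000025892.16), which encodes the GluA4 subunit, lies at chr9:4417896-4796234 on the reverse strand. It had 23.8 and 21.4 TPM, rank 4720, and was the lowest of the pore genes in each library.

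Set against one another within a library, Gria2 stood at 0.918 ± 0.0367 of the Gria1 level (n = 2). Gria3 stood at 0.220 ± 0.0124 of Gria2, and Gria4 at 0.0975 ± 0.00362 of Gria2. Of the summed TPM of the pore genes, Gria1 made up 45.3% ± 0.827, Gria2 41.6% ± 0.904, Gria3 9.12% ± 0.316 and Gria4 4.05% ± 0.239. Counting only transcripts annotated as protein-coding changed this picture for Gria2. Its ratio to Gria1 was then 0.635 ± 0.0292, and its share of the pore sum 33.8% ± 1.01, because 29.5% of its TPM was in retained-intron transcripts. Gria1 then made up 53.3% ± 0.863.

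The TARPs, transmembrane relatives of the calcium channel gamma subunit, anchor receptors at the synapse and slow their closing. Cacng8 (TARP gamma-8, ENSMUSG00000053395.15, chr7:3390683-3415648, forward strand) had 174 TPM in replicate 1 and 174 TPM in replicate 2, rank 378. Cacng3 (TARP gamma-3, ENSMUSG00000066189.9, chr7:122670492-122769393, forward strand) had 19.4 and 23.7 TPM, rank 4928. Cacng2 (TARP gamma-2 or stargazin, the protein missing in the stargazer mouse, ENSMUSG00000019146.2, chr15:77991748-78120028, reverse strand) had 18.8 and 17.6 TPM, rank 5643. Cacng8 was the dominant TARP of the 3, at 9.60 ± 0.447 times the Cacng2 level within a library. Cacng3 stood at 1.03 times Cacng2 in replicate 1 and 1.35 times in replicate 2. Values of Cacng3 and Gria4 overlapped between libraries, so their order is not set beyond the spread.

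Cnih2 (ENSMUSG00000024873.7, chr19:5092868-5098521, reverse strand) encodes a cornichon, a small membrane protein that helps export the receptor from the endoplasmic reticulum and prolongs its opening. It was the most abundant of the 10 genes, with 372 TPM in replicate 1 and 386 TPM in replicate 2, rank 93. Its level was 1.5 ± 0.0378 times that of Gria1 within a library. Shisa6 (ENSMUSG00000053930.13, chr11:66211725-66525964, reverse strand) encodes a protein known to hold AMPA receptors at postsynaptic sites. It had 96.1 TPM in replicate 1 and 80.8 TPM in replicate 2, rank 970, the largest SD of the set at 10.8 TPM. Shisa9 (ENSMUSG00000022494.15, chr16:11984113-12270902, forward strand), also called CKAMP44, encodes a relative that promotes desensitization and is known from dentate granule cells. It had 16.2 and 17.8 TPM, rank 5898, and its values overlapped with those of Cacng2. Shisa9 stood at 0.195 ± 0.0368 of Shisa6, and at 0.139 ± 0.0196 counting only protein-coding transcripts.

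The auxiliary genes had a summed level of 697 and 700 TPM in replicates 1 and 2, against 563 and 550 TPM for the pore genes. The ratio of auxiliary to pore sum was 1.26 ± 0.0251. Cnih2 alone made up 54.3% ± 1.27 of the auxiliary sum and Cacng8 25% ± 0.126. Shisa6 made up 12.7% ± 1.59, and Cacng3, Cacng2 and Shisa9 between 2.43% and 3.08% each. These are sums of RNA levels, and no protein was measured.

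The exon pair shows how the pore genes differ from one another and within themselves. In each gene the flip and the flop exon are both 115 bases long, and an exon was called flip or flop from the residues it encodes. The exons are printed from the mm10 sequence with the M21 annotation, from 5′ to 3′ along the transcript, with capitals for bases at which the flip and flop exons of the same gene differ.
Gria1 flip: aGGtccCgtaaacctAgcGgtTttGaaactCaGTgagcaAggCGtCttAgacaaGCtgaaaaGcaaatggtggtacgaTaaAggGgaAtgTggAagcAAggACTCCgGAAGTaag
Gria1 flop: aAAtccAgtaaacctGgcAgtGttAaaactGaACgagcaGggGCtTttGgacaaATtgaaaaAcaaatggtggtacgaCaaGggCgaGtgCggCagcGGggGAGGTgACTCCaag
Gria2 flip: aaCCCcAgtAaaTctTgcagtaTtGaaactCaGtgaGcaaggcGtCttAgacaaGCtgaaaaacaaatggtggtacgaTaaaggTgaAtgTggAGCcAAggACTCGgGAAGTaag
Gria2 flop: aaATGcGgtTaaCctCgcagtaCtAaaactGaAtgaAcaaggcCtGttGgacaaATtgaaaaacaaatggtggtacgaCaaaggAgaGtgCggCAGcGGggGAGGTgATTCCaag
Gria3 flip: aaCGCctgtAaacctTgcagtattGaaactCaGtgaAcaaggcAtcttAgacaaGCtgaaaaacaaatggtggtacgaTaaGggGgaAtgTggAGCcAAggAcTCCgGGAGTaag
Gria3 flop: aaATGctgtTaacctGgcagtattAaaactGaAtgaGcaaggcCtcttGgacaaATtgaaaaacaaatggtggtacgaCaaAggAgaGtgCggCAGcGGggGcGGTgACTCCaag
Gria4 flip: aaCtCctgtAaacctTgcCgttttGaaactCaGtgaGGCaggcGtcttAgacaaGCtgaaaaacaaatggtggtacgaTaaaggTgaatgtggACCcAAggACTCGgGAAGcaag
Gria4 flop: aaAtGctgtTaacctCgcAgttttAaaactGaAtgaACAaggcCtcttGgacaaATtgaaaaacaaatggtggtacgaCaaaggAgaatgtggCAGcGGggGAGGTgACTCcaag

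These exons lie at chr11:57310608-57310722 and chr11:57309769-57309883 for Gria1 flip and flop, at chr3:80690404-80690518 and chr3:80691320-80691434 for Gria2, at chrX:41669501-41669615 and chrX:41654810-41654924 for Gria3, and at chr9:4427030-4427144 and chr9:4432773-4432887 for Gria4. In every pore gene the flop exon is the upstream one along the transcript. The flip exon differs from the flop exon at 36 bases in Gria1, 36 in Gria2, 32 in Gria3 and 31 in Gria4, an identity of 68.7%, 68.7%, 72.2% and 73.0%. The same exon is more alike between genes than the pair is within a gene. Flip exons of different genes were 87.8% to 92.2% identical, and flop exons 87.8% to 94.8%. The capitals are densest near the 3′ end of the exon and are also spread through its 5′ part. A stretch near its middle is lower case in all 8 exons.

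Flip transcripts outweighed flop transcripts in Gria1, Gria2 and Gria3, and not in Gria4. Gria1 flip transcripts had 189 and 194 TPM in replicates 1 and 2, against 58.0 and 55.9 TPM for flop. Most of the Gria1 flip was Gria1-201, at 189 and 193 TPM, and the flop was Gria1-202. The flip share, flip TPM over flip plus flop TPM, was 76.6% in replicate 1 and 77.6% in replicate 2. Gria2 flip had 137 and 128 TPM, against 27.9 and 27.0 TPM for flop, a flip share of 83.1% and 82.6%. Gria3 flip, which was Gria3-201, had 33.6 and 36.4 TPM, against 3.98 and 2.68 TPM for flop, a flip share of 89.4% and 93.1%. The 3 genes did not overlap in flip share in this quantification.

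Gria4 stood apart: its flip transcript had 4.60 and 6.83 TPM in replicates 1 and 2, against 10.5 and 6.48 TPM for flop. Its flip share was 30.6% in replicate 1 and 51.3% in replicate 2, lower than that of every other pore gene in both libraries. The 2 libraries fell on opposite sides of an even split, so which form of Gria4 was more abundant is not set by these data. The main flop transcript Gria4-201 had deposited bounds of 7.74 to 11.1 TPM in replicate 1 and 3.92 to 7.38 TPM in replicate 2, which do not overlap. The flip transcript Gria4-202 had bounds of 2.87 to 5.71 and 5.27 to 8.09 TPM, which overlap. These bounds are the authors', their confidence level is not stated, and they need not contain the deposited TPM. Interneuron markers, which come from cells known to use Gria4, had sums of 381 and 316 TPM in replicates 1 and 2, and 209.9 and 189 TPM without Sst. Sst was the 1 marker of 6 at least 1.2-fold higher in replicate 1 and none was lower, against 12.3% and 8.78% of all genes, a count near that share. The part of these cells in the Gria4 difference was not tested.

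Summed over the pore genes, flip transcripts had 365 and 365 TPM against 100.3 and 92.0 TPM for flop, a share of 78.4% and 79.9%. The read-based quantification, which assigns reads to transcripts without genome alignment, placed the genes differently. Its flip share was 72.3% ± 0.373 for Gria1, 84.0% ± 0.380 for Gria2, 85.7% ± 2.96 for Gria3 and 38.6% ± 12.7 for Gria4. In that table Gria2 and Gria3 overlapped, and Gria4 again differed between libraries, at 29.6% in replicate 1 and 47.5% in replicate 2. The flip and flop transcripts also differ outside the exon pair. The Gria2 flop transcript Gria2-201 is 10371 bases long and the flip transcript Gria2-202 is 4026, and 6345 bases beyond the coding end belong to the flop class alone. By expected counts in place of TPM, the Gria2 flip share was 64.8% ± 0.614. The flip class of Gria3 has 2241 annotated bases of its own outside the pair and the flop class 130. For Gria1 the flip class has 272 such bases and the flop class 0, and for Gria4 the flip class has 3 and the flop class 248. For each pore gene, reads in the exon pair and reads elsewhere cannot be told apart here as the basis of its flip share.

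**Figure D2:**
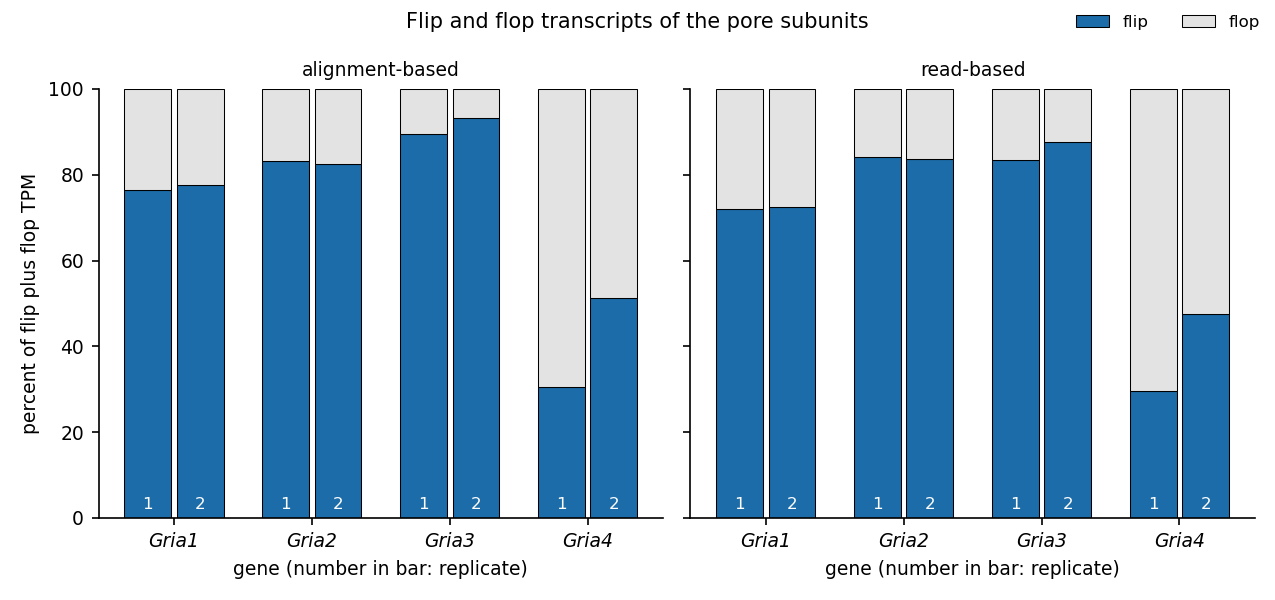
Percent of flip plus flop TPM that was flip (blue, lower part) or flop (grey, upper part) for each pore gene, with a bar for each library and a panel for each quantification. Gria4 is below the other genes in every bar pair, at 30.6% and 51.3% flip in the alignment-based table and 29.6% and 47.5% in the read-based table.

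Beyond the exon pair, 6 of the 10 genes had more than 99% of their TPM in protein-coding transcripts in each library of the alignment-based table. The other 4 were Gria2, Gria3, Shisa6 and Shisa9. Gria2 had 29.5% ± 0.627 of its TPM in retained-intron transcripts, which are annotated without a coding region; 4 of the 5 annotated were above 0 TPM. The most abundant of them, Gria2-206, had 33.5 TPM in replicate 1 and 29.6 TPM in replicate 2, more than the flop transcript in each library. Gria3 had 14.8% ± 1.74 in retained-intron transcripts and 9.03% ± 3.33 in Gria3-206, annotated for nonsense-mediated decay, which holds both exons of the pair. The read-based table gave 27.0% ± 0.310 and 15.7% ± 1.98 for the retained-intron transcripts of Gria2 and Gria3, and 0.493% ± 0.698 for Gria3-206. Gria2 and Gria3 are the 2 genes of the set with such a transcript annotated, and both had at least 10% of their TPM there in both libraries. Of 7617 nuclear protein-coding genes with such a transcript and a mean of 1 TPM or more, 45.6% reached that share, and 47.5% in the read-based table. In Gria3 the retained-intron transcript Gria3-208 spans the flop exon, and counting it as flop gave a flip share of 80.4%.

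Shisa9 had 39.8% ± 4.11 of its TPM in non-coding processed transcripts, mostly Shisa9-204 with 5.97 TPM in replicate 1 and 6.42 TPM in replicate 2. Its coding transcripts summed to 10.2 TPM in each library, led by Shisa9-201 with 8.68 and 8.23 TPM, beside Shisa9-202 with 1.54 and 1.99 TPM. The read-based table gave 49.5% ± 6.96 for the processed transcripts. Shisa6 had 16.0% ± 1.57 in Shisa6-203, a processed transcript of 285 bases, against 0.462% ± 0.653 in the read-based table. The alignment-based share rested on 60.8 and 58.5 expected counts in replicates 1 and 2, of 9560 and 8323 for the gene. Shisa6-201 had 29.9 TPM in replicate 1 and 20.4 TPM in replicate 2, and Shisa6-202, of 7252 bases, had 51.9 and 46.6 TPM. Shisa6-201 holds 169 coding bases that Shisa6-202 lacks, and Shisa6-202 holds 96 that Shisa6-201 lacks.

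Gria4 also had a short form. Gria4-203, with 1299 coding bases against 2706 in Gria4-201 and lacking the flip and flop exons, had 8.71 TPM in replicate 1 and 8.03 TPM in replicate 2. That was 36.7% and 37.6% of the gene's TPM, and 33.8% and 35.6% in the read-based table. It was more abundant than the flip transcript in both libraries and than the flop transcript Gria4-201 in replicate 2. Cacng3-203, whose coding region of 382 bases is a part of the 945 in Cacng3-201, had 31.13% and 31.04% of the Cacng3 TPM.

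The quantifications disagreed on the transcripts of Cacng8. Cacng8-201 had 88.8 TPM in replicate 1 and 85.2 TPM in replicate 2 in the alignment-based table, and Cacng8-202 had 79.0 and 83.0 TPM. In the read-based table Cacng8-202 had 232 and 233 TPM, and Cacng8-201 had 0.000352 TPM or less in both libraries. The transcripts have the same 1269 coding bases, and every exonic base of Cacng8-201 is also in Cacng8-202, which has 517 more. The split between these transcripts is not set by these data. Cacng2, with 1 annotated transcript, Cacng2-201, has no such split, and in Cnih2 nearly all was Cnih2-201, at 370.35 TPM in replicate 1 and 384 TPM in replicate 2.

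**Figure D3:**
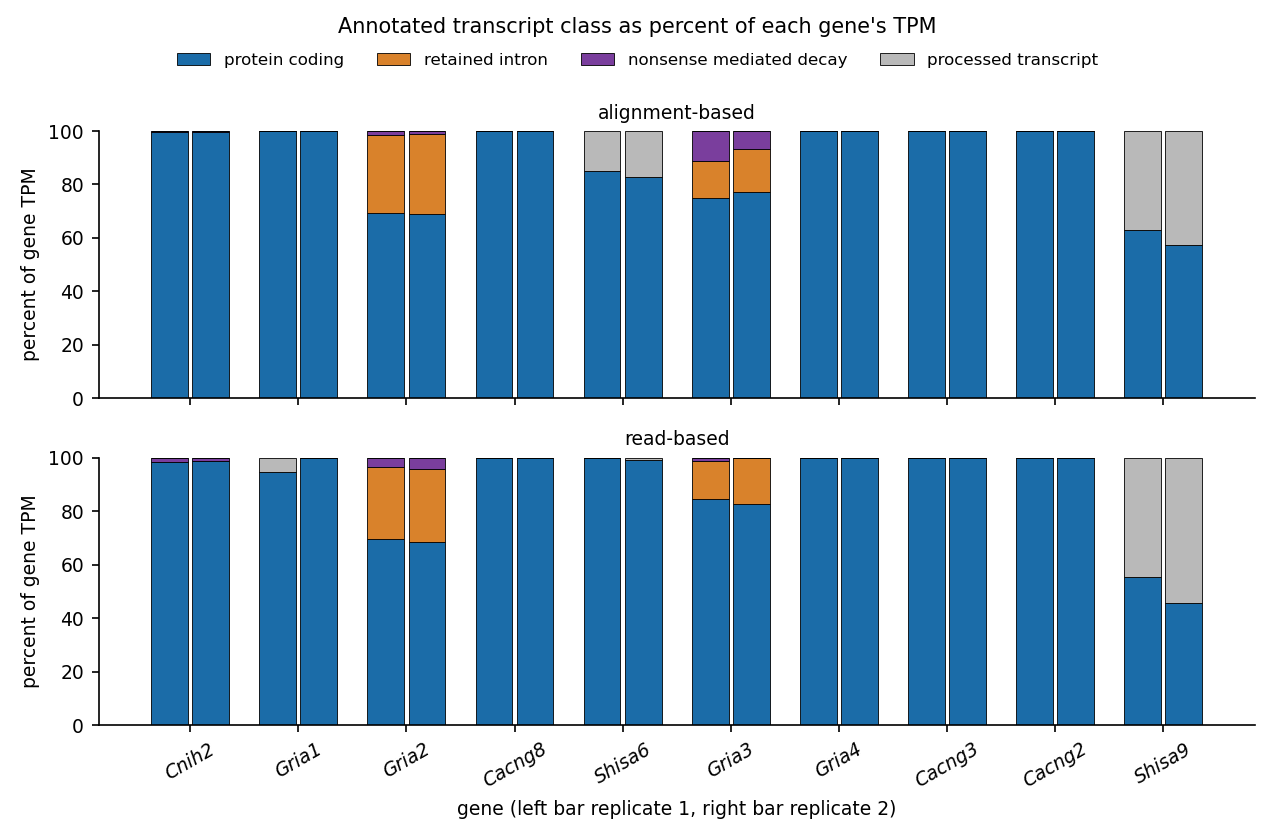
Percent of each gene's TPM in protein-coding (blue), retained-intron (orange), nonsense-mediated decay (purple) and processed (grey) transcripts, replicate 1 left of replicate 2, with the alignment-based table above the read-based one. Gria2, Gria3 and Shisa9 carry non-coding transcripts in both tables, and the processed transcript of Shisa6 is seen in the alignment-based table at 16.0% and in the read-based table at 0.462%.

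At the gene level the alignment-based and read-based tables kept the order of the 6 most abundant genes. All 10 genes were lower in the alignment-based table, by a log2 difference of -0.30 to -0.93. The median over 18313 genes was -0.65 in replicate 1 and -0.66 in replicate 2, so the genes shared a shift of the whole table. None of the 10 was over 2-fold apart in both libraries, against 19.2% of genes. At 1.5-fold, which the shift of the whole table alone exceeds, Gria3, Cacng2, Cacng3 and Shisa9 were apart, 4 of 10 against 56.7% of genes. After both tables were rescaled to nuclear protein-coding genes, an alternative chosen after seeing the data, the median of all genes was 0.05, and 11.4% were over 2-fold and 15.0% over 1.5-fold apart. None of the 10 then passed 1.5-fold. The members then ranged from -0.21 for Shisa9 in replicate 2 to 0.42 for Shisa6 in replicate 2. The last 4 genes changed places: in the read-based table Cacng3, Gria4, Shisa9 and Cacng2 followed in that order, each overlapping the next.

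Between the libraries most of these genes were close. Ratios are log2 of replicate 1 over replicate 2 on expected counts with TMM scaling, which sets the library sizes by the bulk of genes. Cacng3 was the gene of the 10 that was at least 1.2-fold apart, with 910 counts in replicate 1 and 1076 in replicate 2, a log2 ratio of -0.34 (95% counting interval -0.47 to -0.21). That is 1 of 10 genes, against 21.1% of all 14710 genes compared that were 1.2-fold apart in either direction and 8.78% that were lower in replicate 1. None was 1.2-fold higher in replicate 1, against 12.3% of all genes. The other 9 ranged from -0.14 for Cnih2 to 0.10 for Shisa6. Shisa6 had 9560 and 8323 counts in replicates 1 and 2, and its interval of 0.06 to 0.14 lay above 0. Those of Gria1, Gria3, Cacng8 and Cnih2 lay below 0, and those of Gria2, Gria4, Cacng2 and Shisa9 included it. These positions depend on the TMM scaling. By total counts the ratio was -0.03 for Gria1 and Cacng8, -0.05 for Gria3, -0.07 for Cnih2 and 0.17 for Shisa6. By log2 of TPM plus 1 it was -0.0032 for Gria1, 0.0035 for Cacng8, -0.04 for Gria3, -0.05 for Cnih2 and 0.25 for Shisa6. Under TMM scaling the median over the 10 was -0.10, against 0.00 over all genes compared, of which the central 95% ran from -0.48 to 0.62. The counting intervals cover counting error only. A ratio of 1 library to another has no replicate check, so no p-value is given.

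**Figure D4:**
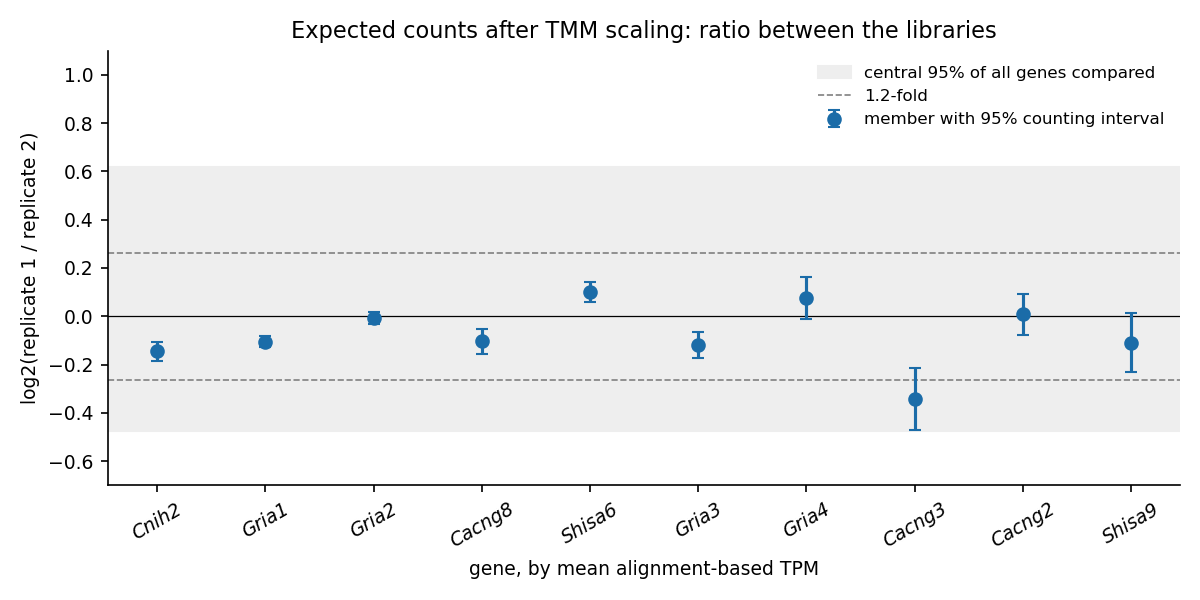
Log2 ratio of replicate 1 over replicate 2 for each AMPA receptor gene after TMM scaling, with 95% counting intervals; the grey band holds the central 95% of all genes compared and dashed lines mark 1.2-fold. Cacng3 at -0.34 is the point beyond the lower line, and all 10 points lie inside the band.

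The spread between the libraries, as the biological coefficient of variation that edgeR estimates from both, was between 0.0649 for Cacng2 and 0.0962 for Cacng3. The median over the 10 genes was 0.0792, and the common value over 17902 genes was 0.104. With 2 libraries, the estimate for a gene is drawn toward that of genes at a like level. These values therefore do not show that the 10 genes vary less than others. Dentate granule markers were lower in replicate 1 as Cacng3 was, with log2 ratios of -0.36 for Prox1, -0.58 for C1ql2 and -0.60 for Dsp. The CA1 marker Wfs1 had -0.56, and the other CA1 markers Fibcd1 and Mpped1 had 0.19 and -0.24. Some markers of other cells were at least 1.2-fold lower in replicate 1 too, against 8.78% of all genes. For astrocytes these were 2 of 4, Aldoc at -0.37 and Slc1a3 at -0.39, while Gfap and Aqp4 had 0.08 and -0.0025. For microglia it was 1 of 3, P2ry12 at -0.35, while Csf1r and C1qa had -0.21 and -0.17. For oligodendrocyte precursors it was 1 of 3, Pdgfra at -0.34, while Cspg4 and Olig1 had -0.11 and -0.03. For myelinating oligodendrocytes it was 0 of 3, with -0.08 for Mbp, -0.06 for Mobp and -0.14 for Mog. The CA3 markers went the other way, with 0.29 for Nectin3, 0.10 for Cpne4 and 0.09 for Bok. The part of any of these cells in the Cacng3 difference was not tested.

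Other genes of the AMPA receptor system were taken from lists. Of 23 further auxiliary or receptor-associated genes, 21 were detected. Their median level was 32.3 ± 0.863 TPM, and that of all 23 was 29.4 ± 1.07 TPM. The secreted olfactomedin Olfm1, a component of native receptor complexes, was highest at 514 ± 0.375 TPM. Prrt1 (SynDIG4) had 112 ± 5.30 TPM, Nrn1 (neuritin) 105 ± 0.728 TPM and the lipase Abhd12 104 ± 2.66 TPM. The lowest were the skeletal muscle calcium channel subunit Cacng1, with 1 count in replicate 1 and 0 in replicate 2, and Cacng6 at 0.735 ± 0.148 TPM. Among the TARP relatives, Cacng7 had 51.5 ± 2.50 TPM and Cacng4 23.3 ± 2.49 TPM, each higher than Cacng2 in both libraries. Cnih3, the cornichon closest to Cnih2, had 21.6 ± 3.51 TPM, and Shisa7 had 57.6 ± 0.990 TPM. Cacng4, Cacng7 and Shisa7 were picked as relatives of the 10 genes after their values were seen.

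Of the 21 detected genes, 4 were at least 1.2-fold lower in replicate 1 and 0 were higher, against 8.78% and 12.3% of all genes. Cnih3 had 994 and 1314 counts in replicates 1 and 2, a log2 ratio of -0.50 (interval -0.62 to -0.38). Cacng5 had 746 and 928 counts, a ratio of -0.41 (interval -0.56 to -0.27). In these genes the whole interval lay beyond 1.2-fold. The other 2, Gsg1l and Shisa8, had ratios of -0.30 and -0.57 from at most 407 counts in a library. The markers lower in replicate 1 are those given for Cacng3, with the markers of the same cells that were not. The part of these cells was not tested.

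All 20 genes of receptor trafficking and anchoring were detected, with a median of 33.3 ± 0.940 TPM. Nsf, the ATPase that binds Gria2, had 436 ± 37.0 TPM. The scaffold Dlg4 (PSD-95) had 390 ± 32.6 TPM, the neuronal pentraxin receptor Nptxr 387 ± 38.2 TPM and the cytoskeletal linker Epb41l1 (4.1N) 132 ± 2.97 TPM. Grip2 at 3.75 ± 0.431 TPM and Lrrtm2 at 16.0 ± 1.82 TPM were lowest. Nptx2 and Grasp were the 2 genes at least 1.2-fold lower in replicate 1, with ratios of -0.28 and -0.27, and 0 were higher, against 8.78% and 12.3% of all genes. The 2 of 20 lower genes are near that share. The 3 RNA editing enzymes were detected: Adarb1, which recodes the Gria2 pore site, had 38.6 ± 3.50 TPM, Adar 37.0 ± 1.62 TPM and Adarb2 12.0 ± 1.72 TPM. None of these enzymes was 1.2-fold apart, and editing itself was not analysed here.

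**Figure D5:**
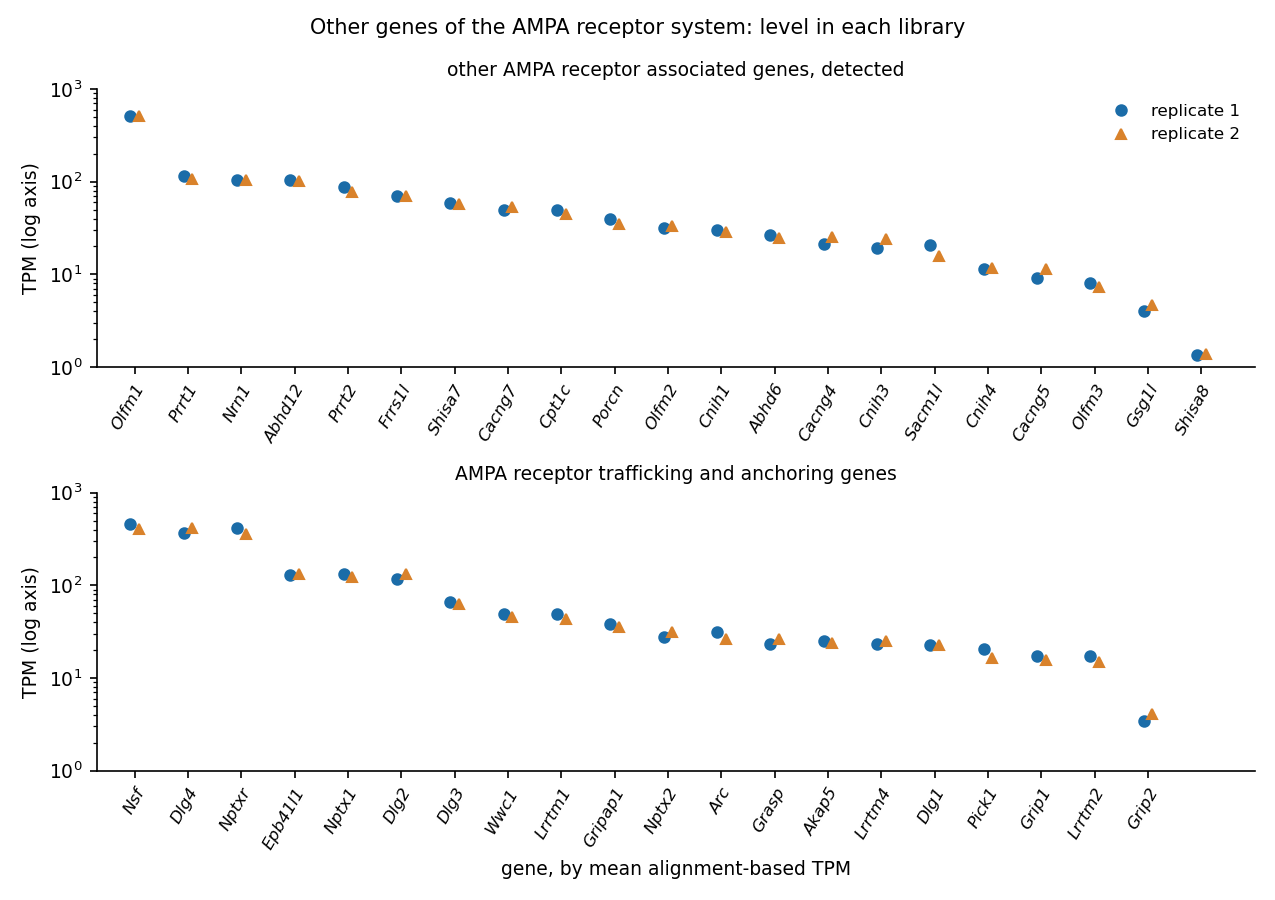
Level of other AMPA receptor associated genes that were detected (upper panel) and of trafficking and anchoring genes (lower panel) in TPM on a log axis, replicate 1 as circles left of replicate 2 as triangles. Olfm1, Nsf, Dlg4 and Nptxr lie above the remaining genes of their panels, and Shisa8 and Grip2 are lowest.

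Sequence shared with other genes could move reads between them, and was small for most of the 10. Between 0 and 1.49% of the 31-base words of Gria1, Gria2, Gria3, Gria4, Cacng3, Cnih2, Shisa6 and Shisa9 were also in another gene. Cacng8 shared 2.64%, with the microRNA gene Gm23450 inside it. Cacng2 shared 6.45%, mostly with the antisense gene A730060N03Rik, which overlaps 323 of its 5510 exonic bases and had 2.66 TPM in replicate 1 and 2.93 TPM in replicate 2. The microRNA gene Gm25749 overlaps 111 exonic bases of Gria2 on the same strand, and had 30.7 and 14.3 TPM. The use of strand in counting is not stated, so reads from the stretch that Cacng2 and its antisense partner share cannot be told apart.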

How the data were processed

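Hippocampal RNA was sequenced in 2 libraries of 1 group. Per the file headers and accompanying notes, the authors quantified each library on mm10 with annotation M21 in 2 ways. The deposited alignment-based gene and transcript tables give expected counts, TPM, FPKM, the percent of the gene's TPM in each transcript, and TPM bounds, per the file headers. The deposited read-based transcript table holds TPM and estimated counts. No source used here gives the aligner, tool versions or the use of strand. The authors' TPM spans every entry, spike-ins included. As mm10 is a C57BL/6J sequence, CAST/EiJ alleles match it less well; they were not analysed separately.

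Depth was 33465393 and 32879872 expected counts in replicates 1 and 2, of which 143817 and 139031 were ERCC spike-ins; the read-based totals were 33783523 and 33023798. Expected counts were rounded. Comparisons used 55450 annotated genes present in both tables, with 33301012 and 32721957 counts. Spike-ins and other entries stayed out of library sizes. Replicate ratios used TMM scaling (edgeR 4.0.16, R 4.3.3) over genes with 10 or more counts per library, a prior count of 0.5, and exact binomial intervals at 95%; genes with a mean of 1 TPM or more and 50 or more counts in all were compared. Intervals cover counting error only, and they treat reads as independent molecules, which reads are not. The log2 ratios after TMM scaling and the common biological coefficient of variation were tested on simulated counts. Quantifications were compared on log2(TPM + 0.1). Flip and flop classes rest on exact exon matches in the annotation. Whether the females listed for a library were combined before or after extraction is not stated, so the spread between libraries may be partly technical.

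The 10 genes and all lists were chosen with earlier results of these data known, so counts and order are descriptions and no p-value is given. Named were the 10 genes and, of each other list except the cell markers, the 4 highest and 2 lowest by mean TPM. Any gene of those lists whose counting interval lay beyond 1.2-fold was named too. So were transcripts of the 10 genes with at least 10% of their gene's TPM in both libraries in either table. Others named were chosen after their values were seen. Genes with a like pattern could not be ranked, since 1 group gives no pattern across conditions. Alternatives were the other table, other scalings (DESeq2 1.42.0 size factors, totals, spike-ins), prior count, pseudocount, threshold, transcript class and leaving out a library. The alignments and tracks were not used here. Tables and figures were made in Python 3.11.15 (pandas 2.3.3, scipy 1.17.1, matplotlib 3.10.9).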

Additional observations from a re-analysis of the deposited data

How the results depend on the processing

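Of the recomputed summary values, 35 stayed close to the value given, within the spread between libraries or 1.5 times for a count, and 8 moved. Of values recomputed for single genes, ratios and transcripts, 114 stayed close, 56 moved and 1 reversed. Leaving out a library cannot move a mean of 2 libraries beyond their spread. Flip shares by protein-coding transcripts equal those given, since every flip or flop transcript is annotated as protein-coding. The values that stayed close include both kinds, so these tallies do not measure how robust the results are. The median level of the 10 genes, 69.6 TPM, was 93.8 TPM in the read-based table and 158 TPM after rescaling to nuclear protein-coding genes. Gria2 over Gria1 was 0.635 by protein-coding transcripts. The auxiliary to pore ratio was 1.22 read-based and 1.43 by protein-coding transcripts. At 1.5-fold, 4 genes differed between the tables, against 56.7% of all genes, and 0 after rescaling, which was chosen after seeing the data. The summed flip share was 76.6% read-based and 73.5% by counts. The Gria4 flip share was 30.6% to 51.3% when a library was left out, on either side of an even split; it was 30.6% without replicate 2 and 51.3% without replicate 1. FPKM gave the same order of genes as TPM. Within a library FPKM is TPM times a constant, so the order there was fixed in advance. The count of genes at least 1.2-fold apart between libraries was 1, Cacng3, under all 8 other scalings, units and counts; log2 ratios of the 10 genes ran from -0.36 to 0.25 under them, and 56 of 80 lay inside their counting intervals. Restriction to protein-coding transcripts leaves no retained-intron share to compute. For what moved, the cause was not tested. No paired analysis was possible because there is 1 group. With 2 libraries, depth limits the interval of the least counted gene, Cacng3, more than that of Gria1.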
